A study of Homo sapiens with 12 samples.

Results

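The comparison described here is that of cells on a DLL4 coating with cells on an IgG coating, pooled over 3 lines of TeloHAEC, a human aortic endothelial cell line made immortal with telomerase. All 12 libraries of the study entered it, 6 on DLL4 against 6 on IgG, with the line as a blocking factor. A gene thus counted only by how its DLL4 libraries differed from the IgG libraries of the same line. Of 35587 gene symbols, 13299 were tested. They are those that reached 1 TPM (a transcript level scaled to transcript length and to a common total per library) in 2 or more libraries.

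The lines were NT, a control line labelled as wild type, TKO, in which Cas9 was aimed at TSPAN14, and NKO, in which Cas9 was aimed at NOTCH1. Plates were coated with IgG or DLL4 at a concentration the labels give as 2.5 mg/mL, a unit that could not be checked here, and RNA was taken after 24 hours. Each of the 6 groups had 2 libraries of polyadenylated RNA, and there was 1 line per target. Per the labels, the lines were kept in endothelial medium and matched for passage. The labels speak of biological replicates without naming separate cultures, so the spread between the 2 libraries of a group may be technical. Errors and p-values of a single line rest on that spread. Those of the pooled change also count unequal responses of the lines as spread. TPM keep no read numbers, which leaves the depth of the libraries unknown. Because every line had the same number of libraries, the pooled change is the plain mean of the 3 line changes, and the line values stand beside it for the genes described in full. All changes are differences of log2(TPM + 1), DLL4 minus IgG, which understate the change of genes at low levels.

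DLL4 is a transmembrane ligand of the Notch receptors. Binding of a ligand that is held on a surface pulls on the receptor, ADAM10 and then gamma-secretase cut it, and the released intracellular part joins the DNA-binding protein RBPJ to switch on genes such as those of the HES and HEY repressors. In the vessel wall, DLL4 and Notch are known for restraining sprouting tip cells and for arterial identity.

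Promoter sequences of 5 of the genes that changed at least 2-fold are shown here because they hold the letters GTGGGAA, the core of the sequence RBPJ is known to bind. The capitals mark those letters, or TTCCCAC where they lie on the other strand, and each stretch is read 5′ to 3′ in the direction of the gene (RefSeq, GRCh38.p14, only bases before the RefSeq start). Bases that GENCODE 29 places in an exon are left out, except for up to 30 around the letters in HES4 and FST.
HES1, chr3:194136048-194136144, plus strand: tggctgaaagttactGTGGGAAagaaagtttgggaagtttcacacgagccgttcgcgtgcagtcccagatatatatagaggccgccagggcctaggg
HES4, chr1:1000156-1000185, minus strand: ctggggcgagtGTGGGAAagaatgcggagc
HEY2, chr6:125749382-125749481, plus strand: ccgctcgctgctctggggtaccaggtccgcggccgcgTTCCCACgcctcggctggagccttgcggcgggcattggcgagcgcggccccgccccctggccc
NTN4, chr12:95791156-95791255, minus strand: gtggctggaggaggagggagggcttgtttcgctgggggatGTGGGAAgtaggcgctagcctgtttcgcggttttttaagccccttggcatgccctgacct
FST, chr5:53480443-53480472, plus strand: gtttccagaagGTGGGAAatgtcacctgat
HES1, HES4, HEY2 and NTN4 rose on DLL4, and FST fell. These 5 are all the genes with a change of at least 2-fold whose 250 bases before the start held the letters on either strand. A window was at hand for 9642 of the 13299 genes tested, and 489 of those (5.07%) held the letters. The share was 39 of 902 (4.32%) among rising genes and 38 of 668 (5.69%) among falling genes. It was 4 of 66 (6.06%) among genes that rose at least 2-fold and 1 of 21 (4.76%) among those that fell at least 2-fold. The shares of the rising and falling genes were close to that of all genes, and a match describes these windows only.

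Over the 3 lines, 2108 genes passed the test (15.9% of the genes tested, limma with Benjamini-Hochberg adjusted p under 0.05): 1201 rose (9.03%) and 907 fell (6.82%). The balance of directions depended on the scaling: 1140 rose and 1161 fell after median-of-ratios rescaling, 1168 and 1229 after quantile normalisation, and 1091 and 1166 with the pseudogene KPNA2P2 left out. Most of the changes were small, since 126 of the calls (0.947% of the genes tested) reached 2-fold, 88 of them rising and 38 falling. The median change of all genes tested was 0.01. For 1323 of the 2108 calls (9.95% of the genes tested, 771 rising at 5.80% and 552 falling at 4.15%), every DLL4 library lay on one side of both IgG libraries in each of the 3 lines. The falling calls numbered 585 without NT library IgG 3 and 574 without NT library DLL4 3. That complete separation, called or not, was found for 11.6% of all genes tested. The calls nearest the threshold were small changes. PA2G4 (-0.19 ± 0.06), SAT2 (0.19 ± 0.06) and NNMT (0.17 ± 0.05) were just inside it, while SPRED2 (-0.25 ± 0.08), GABBR1 (0.38 ± 0.12) and ZBTB5 (0.29 ± 0.09) were just outside.

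The libraries of a group were alike, with Pearson's r across genes of 0.987 to 0.992 on the log2 scale. Endothelial markers were present throughout, with CDH5 (VE-cadherin) at 242 to 381 TPM, PECAM1 at 171 to 451 TPM and ESAM at 489 to 564 TPM. VWF, the von Willebrand factor gene, was at 6.63 to 49.2 TPM. The epithelial markers EPCAM and CDH1, the leukocyte markers PTPRC and CD3E and the smooth muscle markers MYH11 and DES stayed below 1 TPM in all 12 libraries. Other members of these lists did not. KRT18 was at 464 to 1051 TPM, KRT19 at 63.85 to 753, CD68 at 27.3 to 64.3, RGS5 at 2.55 to 221 and ACTA2 at 9.78 to 29.85. Of 45 markers of smooth muscle, leukocytes, epithelium and blood cells, 8 were tested. Of these KRT18 (0.30 ± 0.08), ACTA2 (0.42 ± 0.09) and CD14 (0.68 ± 0.21) rose and KRT19 (-1.18 ± 0.21) fell. The calls of CD14 and KRT18 ended without any of 9 and of 4 single libraries. The summed TPM of the smooth muscle and fibroblast markers was 25 to 161 over the IgG libraries and 28.8 to 247 over the DLL4 libraries. It was 32 to 68.3 and 29.4 to 65.2 for the leukocyte markers and 724 to 1305 and 858 to 1346 for the epithelial ones. The part of these markers in the other changes was not tested. In these bulk samples, fewer cells of a type and less RNA per cell cannot be told apart.

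**Figure D1:**
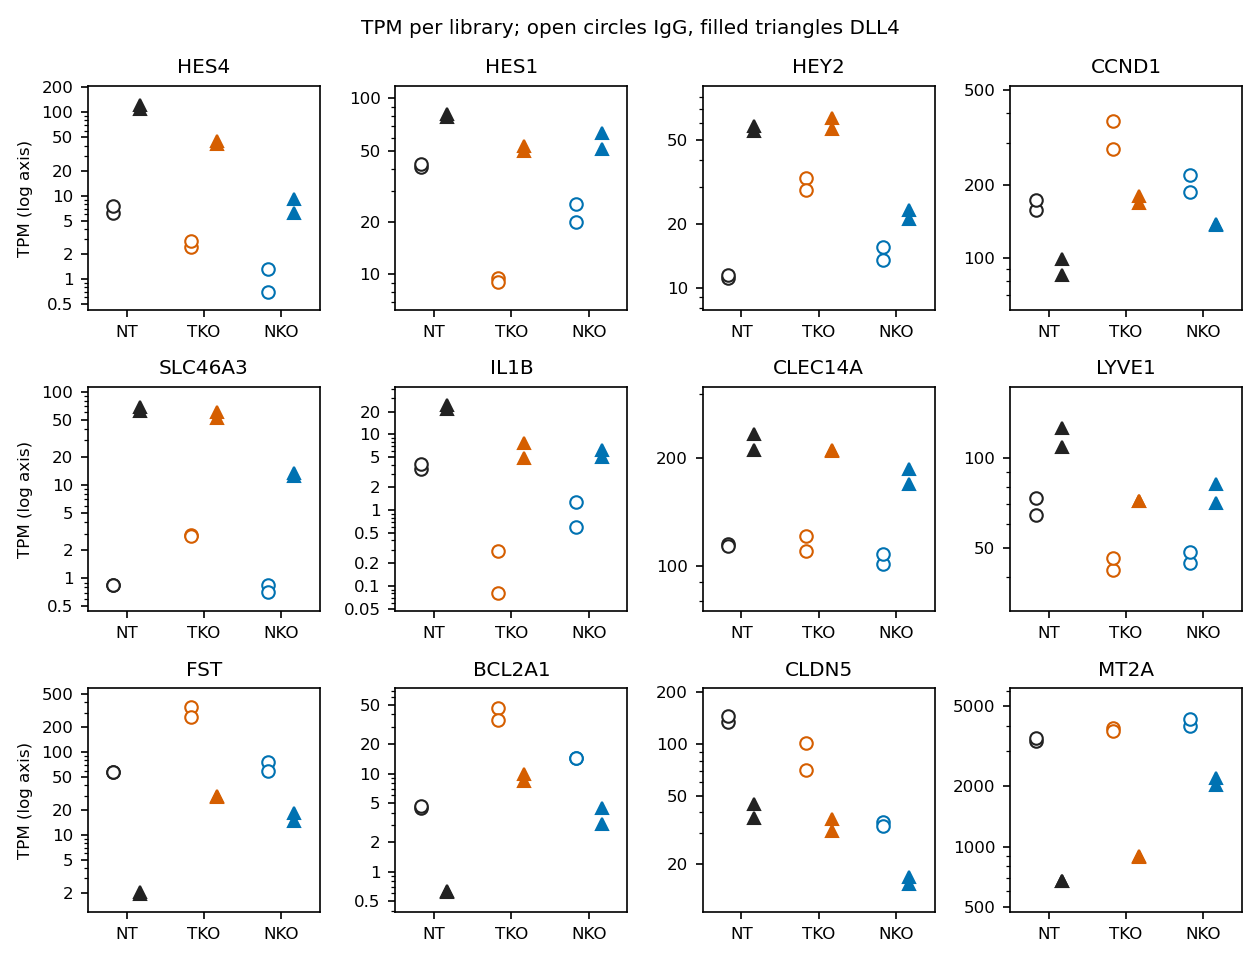
TPM on a log axis in each of the 12 libraries for 12 genes, with the lines along the horizontal axis, open circles for IgG and filled triangles for DLL4, 2 libraries each. In every panel the DLL4 libraries of a line lie apart from its IgG libraries, above them for HES4, HES1, HEY2, SLC46A3, IL1B, CLEC14A and LYVE1 and below them for CCND1, FST, BCL2A1, CLDN5 and MT2A.

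The targeted genes were read first. NOTCH1, the receptor gene (chromosome 9, 136494433 to 136545786, minus strand, GRCh38), was at 17.8 and 19.6 TPM on IgG and 31.5 and 24.7 on DLL4 in NT cells, at 17 and 22.2 on IgG and 23.8 and 21.6 on DLL4 in TKO cells, and at 19.2 and 15.6 on IgG and 16.5 and 19.5 on DLL4 in NKO cells. Its message was present in the NKO libraries at a level that overlapped the other lines on IgG. On DLL4, both NKO libraries lay below all NT and TKO libraries. The pooled change of NOTCH1 was 0.27 ± 0.11 (limma adjusted p = 0.10), which did not pass the test. TSPAN14, a tetraspanin that escorts ADAM10, was at 127 to 218 TPM over the IgG libraries and 109 to 186 over the DLL4 libraries. It fell by 0.20 ± 0.06 (limma adjusted p = 0.040). That call ended when any of 10 single libraries was left out (adjusted p up to 0.098) and when any of the 3 lines was.

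Among the ligands, the DLL4 gene itself rose. DLL4 (chromosome 15, 40929333 to 40939073, plus strand) was at 5.09 and 5.41 TPM on IgG and 45.6 and 40.7 on DLL4 in NT cells, at 13.2 and 16.4 on IgG and 59.1 and 62.6 on DLL4 in TKO cells and at 5.33 and 5.63 on IgG and 9.75 and 11.9 on DLL4 in NKO cells. The coatings did not overlap in any line. The pooled change of DLL4 was 1.89 ± 0.24 (limma adjusted p = 0.00024), and the line changes of 2.82 for NT, 1.97 for TKO and 0.86 for NKO cells differed (limma F test, adjusted p = 0.0024). JAG1, another Notch ligand, changed by 0.79 in NT cells (limma adjusted p = 0.010) but by -0.34 in TKO and 0.02 in NKO cells, and its pooled change of 0.16 ± 0.16 did not pass the test (adjusted p = 0.56).

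Of the 44 genes of Notch ligands, receptors and processing, 38 were tested, 4 rose and 2 fell, shares close to those of all genes tested, with a median change of 0.08 against 0.01 for all genes. Besides DLL4, TSPAN15, another tetraspanin partner of ADAM10, rose by 0.76 ± 0.12 (limma adjusted p = 0.0012), with changes of 0.80 for NT, 0.90 for TKO and 0.57 for NKO cells. TSPAN15 stood at 36 to 110.2 TPM over the IgG libraries and 72.7 to 188 over the DLL4 libraries, and the coatings were apart within each line. APH1B, a gamma-secretase subunit, rose by 0.39 ± 0.08 (adjusted p = 0.0062). LFNG, a Fringe glycosyltransferase that alters how Notch receptors bind their ligands, fell by 0.95 ± 0.17 (adjusted p = 0.0023). The related MFNG went from 113 and 123 to 31.5 and 27.6 TPM in NT cells, with changes of -1.96 for NT, 0.02 for TKO and -0.31 for NKO cells. Its pooled change of -0.75 ± 0.25 did not pass the test (adjusted p = 0.059), and its responses differed between the lines (limma F test, adjusted p = 0.00020).

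Of 27 Notch targets and feedback genes, 21 were tested, with a median change of 0.55. Of these, 10 rose (47.6%, against 9.03% of all genes tested) and 4 fell (19.05%, against 6.82%). The medians by line were 0.86 for NT, 0.12 for TKO and 0.10 for NKO cells. Of the falling members, 2 remained called when any 1 of the 4 NT libraries was left out, since MYC (fell by 0.32 ± 0.09) and GATA2 (fell by 0.24 ± 0.07) lost their calls in each case. The call of MYC also ended without NKO library IgG 1 or DLL4 2, and that of GATA2 without TKO library DLL4 3. HES5, HEYL, DTX1, NOTCH3, IGF1R and PTCRA did not pass the filter on low values. Several of these genes are textbook targets chosen for this list with earlier results of these data known, so their direction is not independent evidence. The other gene lists were chosen with the same knowledge, so their shares are not independent evidence either.

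HES4, a transcriptional repressor (chromosome 1, 998962 to 1000172, minus strand), rose most among the targets. HES4 was at 6.14 and 7.55 TPM on IgG and 123 and 110.0 on DLL4 in NT cells. In TKO cells it was at 2.42 and 2.82 on IgG and 45.1 and 41.5 on DLL4, and in NKO cells at 0.706 and 1.31 on IgG and 6.28 and 9.19 on DLL4 TPM. The DLL4 libraries were above the IgG libraries in each line, but the NKO libraries on DLL4 lay near the NT libraries on IgG. The pooled change of HES4 was 3.21 ± 0.24 (limma adjusted p = 9.6e-06), made of 3.91 for NT, 3.61 for TKO and 2.12 for NKO cells, which differed between lines (limma F test, adjusted p = 0.020).

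HES1 (chromosome 3, 194136145 to 194138732, plus strand), the repressor whose promoter stretch heads the list above, had another order of lines. It went from 40.7 and 42.6 to 81.2 and 78.9 TPM in NT cells, from 9.58 and 9.07 to 50.3 and 53.6 in TKO cells and from 19.8 and 25 to 51.8 and 63.5 in NKO cells. The TKO line started lowest on IgG and had the largest change. The pooled change of HES1 was 1.54 ± 0.18 (limma adjusted p = 0.00017), with 0.93 for NT, 2.36 for TKO and 1.33 for NKO cells (limma F test of the difference, adjusted p = 0.0068).

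HEY2 (chromosome 6, 125747664 to 125761269, plus strand), a repressor tied to arterial fate, went from 11.1 and 11.5 to 58.1 and 54.8 TPM in NT cells, from 33 and 29.1 to 63.4 and 56.4 in TKO cells and from 15.6 and 13.4 to 23.2 and 21.1 in NKO cells. On IgG the TKO libraries were the highest of the 3 lines, and on DLL4 the NKO libraries were the lowest. The pooled change of HEY2 was 1.24 ± 0.21 (limma adjusted p = 0.0017), with 2.23 for NT, 0.93 for TKO and 0.58 for NKO cells (limma F test, adjusted p = 0.0021). Its relative HEY1 was at 1.50 to 2.82 TPM over the IgG libraries and 2.41 to 7.05 over the DLL4 libraries and rose by 0.87 ± 0.17 (adjusted p = 0.0040).

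NRARP, a feedback inhibitor of Notch, rose by 0.62 ± 0.15 (limma adjusted p = 0.013), with 0.39 for NT, 1.09 for TKO and 0.40 for NKO cells. SNAI2, a repressor linked to mesenchymal change, rose by 1.04 ± 0.21 (limma adjusted p = 0.0051), and CDKN1A, the p21 cell cycle inhibitor, by 0.56 ± 0.09 (limma adjusted p = 0.0013). The coatings of SNAI2 and CDKN1A did not overlap in any line. UNC5B, a netrin receptor, rose by 0.55 ± 0.17 (limma adjusted p = 0.042), a call that ended when any of 9 single libraries was left out (adjusted p up to 0.10), with changes of 1.26 for NT, 0.19 for TKO and 0.21 for NKO cells. Without the 4 NT libraries, the calls of HEY1 (limma adjusted p = 0.095), LFNG (0.053), SNAI2 (0.082) and NRARP (0.062) ended, while HES1 (0.0010), HES4 (0.00092) and CCND1 (0.0041) passed.

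EFNB2 and GJA4, which mark arterial endothelium, responded unequally in the lines (limma F test, adjusted p = 0.0013 and 0.0036). EFNB2 was at 0.274 and 0.344 TPM on IgG and 11.8 and 10.4 on DLL4 in NT cells, at 1.92 and 1.59 on IgG and 14.5 and 10.3 on DLL4 in TKO cells, and at 0.0262 and 0.0660 on IgG and 0.0158 and 0.131 on DLL4 in NKO cells. EFNB2 rose in the pooled fit by 1.84 ± 0.39 (limma adjusted p = 0.0072) although its libraries were near 0 on both coatings in NKO cells. The call ended without the NT line (adjusted p = 0.13) or the TKO line (adjusted p = 0.088). GJA4, a connexin, was listed at 0 in all 6 IgG libraries. On DLL4 it was listed at 6.42 and 4.27 TPM in NT cells, 0.0608 and 0.106 in TKO cells, and 0 and 0.0486 in the NKO line. Its pooled change of 0.93 ± 0.36 did not pass the test (adjusted p = 0.10).

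CCND1 encodes cyclin D1, which drives cells into the cycle. It went from 159 and 174 to 98.6 and 84.6 TPM in NT cells, from 284 and 370.2 to 182 and 169 in TKO cells and from 222 and 188 to 137 and 138 in NKO cells. It was lower on DLL4 in each line without overlap and fell by 0.77 ± 0.08 (limma adjusted p = 7.4e-05), with -0.85 for NT, -0.88 for TKO and -0.57 for NKO cells. The members HES2 (0.04 ± 0.08), SNAI1 (0.30 ± 0.12), GATA3 (0.28 ± 0.17) and TMEM100 (0.41 ± 0.20) did not pass the test.

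The largest rise of all genes named by size was that of SLC46A3, a transporter of the lysosomal membrane (chromosome 13, 28700064 to 28718970, minus strand). SLC46A3 was at 0.845 and 0.846 TPM on IgG and 68.7 and 61.9 on DLL4 in NT cells, at 2.92 and 2.86 on IgG and 61.1 and 52.2 on DLL4 in TKO cells, and at 0.844 and 0.721 on IgG and 12.4 and 13.4 on DLL4 in NKO cells. All 6 DLL4 libraries were above all 6 IgG libraries. The change of SLC46A3 was 4.00 ± 0.26 (limma adjusted p = 4.7e-06), from 5.16 for NT, 3.88 for TKO and 2.96 for NKO cells (limma F test, adjusted p = 0.0013).

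TFF1, a secreted trefoil peptide, spanned 0.605 to 20.0 TPM on IgG and 5.09 to 405 on DLL4, and rose by 3.11 ± 0.33 (limma adjusted p = 9e-05), with 4.47 for NT, 2.93 for TKO and 1.94 for NKO cells. IL1B, the cytokine interleukin-1 beta (chromosome 2, 112829751 to 112836903, minus strand), was at 3.49 and 4.11 TPM on IgG and 21.7 and 24.3 on DLL4 in NT cells, at 0.287 and 0.0801 on IgG and 7.61 and 4.90 on DLL4 in TKO cells and at 1.29 and 0.604 on IgG and 6.17 and 4.97 on DLL4 in NKO cells. IL1B rose by 2.23 ± 0.15 (limma adjusted p = 6.6e-06), and its changes of 2.32 for NT, 2.60 for TKO and 1.77 for NKO cells were not found to differ (limma F test, adjusted p = 0.41). Both TKO libraries on IgG lay well below 1 TPM, where log2(TPM + 1) understates the rise, so alike responses of IL1B are not shown. F2RL1, the protease-activated receptor PAR2, rose by 2.23 ± 0.19 (limma adjusted p = 1.7e-05), with 2.85 for NT, 1.73 for TKO and 2.10 for NKO cells. Unlike most genes with large changes, F2RL1 changed by more in NKO than in TKO cells, although the F test did not find a difference (adjusted p = 0.29).

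Other large rises covered secreted and membrane proteins. They included MASP1, a protease of the lectin pathway of complement (2.08 ± 0.31), IGFBP5, a binding protein for insulin-like growth factors (2.06 ± 0.29), RND1 (1.97 ± 0.31), PLSCR4, a phospholipid scramblase (1.88 ± 0.18), and ART4, the carrier of the Dombrock blood group (1.82 ± 0.28). Their limma adjusted p-values lay between 4.6e-05 (PLSCR4) and 0.0012 (RND1). Of these 5, ART4 had its largest change on the log2(TPM + 1) scale in TKO cells. The changes were 1.55 for NT, 3.11 for TKO and 0.80 for NKO cells (limma F test, adjusted p = 0.0033). The ART4 means went from 0.0101 to 1.97 TPM in NT, from 2.52 to 29.15 in TKO and from 0.063 to 0.852 in NKO cells. That scale understates changes from levels below 1 TPM, so the order does not show which line responded most. CASP17P is annotated as a pseudogene and rose by 2.60 ± 0.24, a value that is uncertain because reads of similar caspase genes can be split between copies.

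FST, which encodes follistatin, a secreted binder of activins (chromosome 5, 53480409 to 53487134, plus strand), had the largest fall. FST was at 58.5 and 56.9 TPM on IgG and 1.97 and 2.08 on DLL4 in NT cells, at 353 and 268 on IgG and 29 and 29.8 on DLL4 in TKO cells, and at 76.3 and 60.0 on IgG and 18.6 and 14.8 on DLL4 in NKO cells. All 6 DLL4 libraries were below all 6 IgG libraries. FST fell by 3.20 ± 0.28 (limma adjusted p = 2.1e-05), with -4.28 for NT, -3.35 for TKO and -1.97 for NKO cells (limma F test, adjusted p = 0.0023).

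BCL2A1, an anti-apoptotic member of the BCL2 family (chromosome 15, 79960889 to 79971446, minus strand), had the smallest adjusted p of the genes named by size. BCL2A1 went from 4.48 and 4.68 to 0.620 and 0.639 TPM in NT cells, from 46.1 and 34.8 to 9.98 and 8.46 in TKO cells and from 14.4 and 14.5 to 4.46 and 3.09 in NKO cells. The lines started at levels far apart, and the DLL4 libraries were lower in each. It fell by 1.83 ± 0.10 (limma adjusted p = 1.8e-06). The changes of -1.77 for NT, -2.01 for TKO and -1.71 for NKO cells were nearly equal on the log2(TPM + 1) scale (limma F test, adjusted p = 0.79). The NT libraries on DLL4 lay below 1 TPM, where that scale understates the fall, so equal responses are not shown.

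The other large falls were those of TMEM158 (-1.99 ± 0.20), SH2D2A, a signalling adapter (-1.86 ± 0.16), PTPN7, a tyrosine phosphatase (-1.71 ± 0.23), GRAMD1B, a sterol transfer protein (-1.56 ± 0.14), SEMA7A, a membrane-anchored semaphorin (-1.54 ± 0.12), CDCP1 (-1.51 ± 0.16), MYCBPAP (-1.51 ± 0.19), ESM1, the tip cell product endocan (-1.50 ± 0.13), and CD274, the checkpoint ligand PD-L1 (-1.47 ± 0.16). Their limma adjusted p-values ran from 1.5e-05 (SEMA7A) to 0.00042 (PTPN7). Each was lower on DLL4 in 3 of 3 lines without overlap, which the naming rule asked for. EGR1, an immediate early factor, was named for the size of its smallest line change and fell by 1.31 ± 0.14 (limma adjusted p = 0.00010), with -1.51 for NT, -1.30 for TKO and -1.11 for NKO cells. The plot of changes by line shows the log2(TPM + 1) changes of the 24 genes with the largest pooled changes. Of these, 23 changed least in NKO cells, F2RL1 being the exception. The scale understates changes from levels below 1 TPM, as in ART4, so this order can depend on it.

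**Figure D2:**
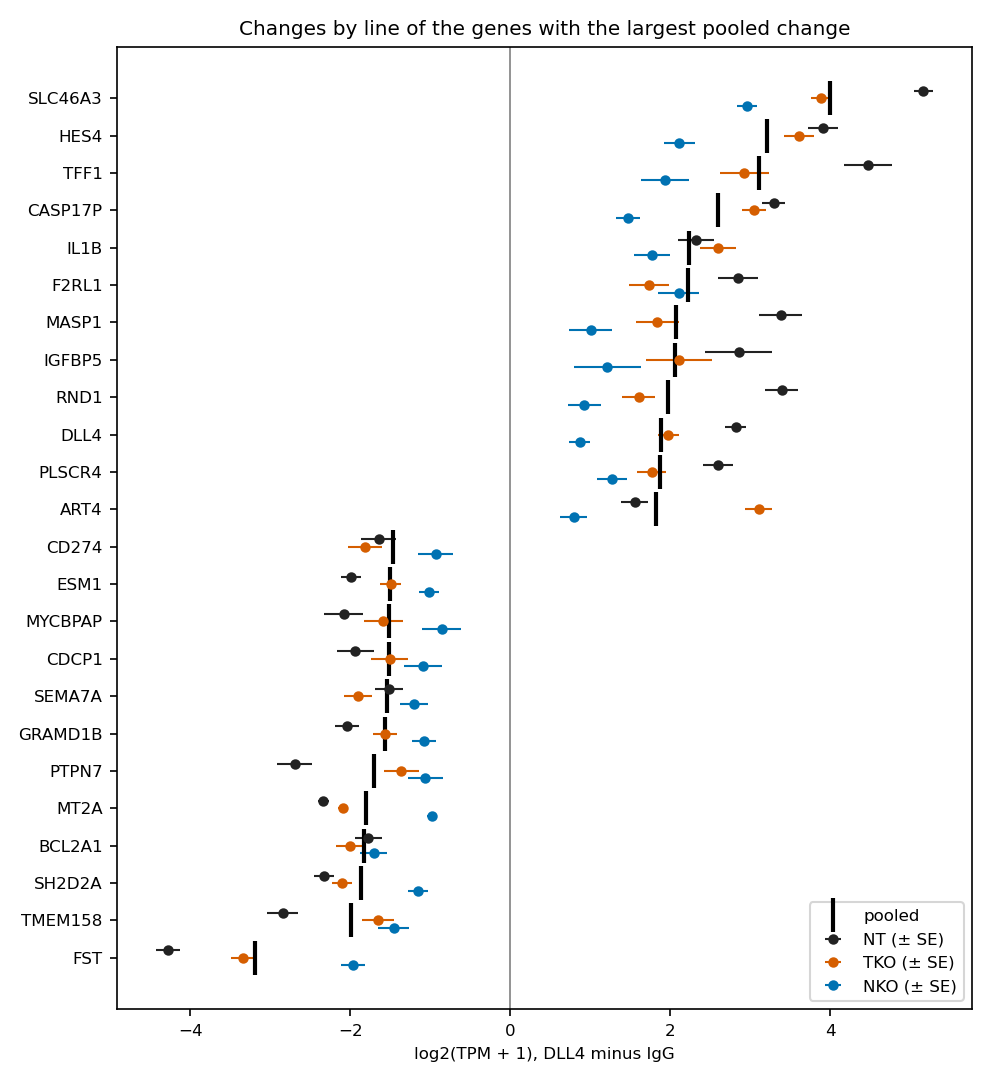
Change on DLL4 as a difference of log2(TPM + 1) for the 24 genes with the largest pooled changes that passed the naming rule, with points for the NT, TKO and NKO lines, bars for the standard error of each line's change and a black tick for the pooled change. All points of a gene lie on one side of 0, as the naming rule asked, and NKO points lie nearest to 0 for 23 of the 24 genes. BCL2A1 is a gene whose 3 points nearly coincide on this scale, which understates changes that involve levels below 1 TPM.

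Some genes responded by almost the same amount in every line. CLEC14A, an endothelial lectin (chromosome 14, 38254103 to 38256369, minus strand), went from 115 and 113 to 232 and 210.1 TPM in NT cells, from 110.1 and 121 to 209 and 210.0 in TKO cells and from 101 and 108 to 169 and 186 in NKO cells. It rose by 0.85 ± 0.05 (limma adjusted p = 3.3e-06), with 0.95 for NT, 0.85 for TKO and 0.76 for NKO cells (limma F test, adjusted p = 0.69). LYVE1, a hyaluronan receptor known from lymphatic vessels (chromosome 11, 10556966 to 10611689, minus strand), went from 73.4 and 64.3 to 126 and 109 TPM in NT cells, from 42.1 and 46.4 to 71.9 and 72 in TKO cells and from 44.5 and 48.5 to 71.1 and 82.3 in NKO cells. LYVE1 rose by 0.72 ± 0.06 (limma adjusted p = 1.7e-05), with 0.77 for NT, 0.69 for TKO and 0.71 for NKO cells. The coatings of CLEC14A and LYVE1 were apart in each line, although 1 IgG library of LYVE1 in NT cells lay above 3 DLL4 libraries of the other lines.

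TGFB2, a ligand of the TGF-beta family, rose by 1.31 ± 0.12 (limma adjusted p = 4.1e-05), with 1.22 for NT, 1.33 for TKO and 1.38 for NKO cells. It was at 0.0378 to 1.09 TPM on IgG and 1.33 to 5.42 on DLL4. CCL2, a monocyte chemokine, rose by 1.27 ± 0.08 (limma adjusted p = 3.8e-06), with 1.50 for NT, 1.27 for TKO and 1.05 for NKO cells. Its IgG libraries were at 41.5 to 84 TPM and its DLL4 libraries at 113 to 185. DUSP6, a phosphatase that acts on ERK, rose by 1.15 ± 0.09 (limma adjusted p = 1e-05), with IgG libraries at 53.5 to 69 TPM and DLL4 libraries at 113 to 152. For each of these genes all 6 DLL4 libraries were above all 6 IgG libraries. CLDN5, a tight junction protein of endothelium, fell by 1.37 ± 0.12 (limma adjusted p = 1.9e-05), with -1.76 for NT, -1.30 for TKO and -1.06 for NKO cells. Its IgG levels of 134 and 146 TPM in NT cells and 34.9 and 33.4 in NKO cells were far apart, so the coatings were separate within lines and not across them.

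An even response, meaning 3 changes of 1 sign of which the smallest is at least 50% of the largest, was found for 586 of the 2108 pooled calls (27.8%; 349 rising and 237 falling) and for 8.59% of all genes tested. The pooled test uses the same changes and counts unequal responses of the lines as spread, which favours even ones. The shares are therefore a description of the calls. Of the pooled calls, 2088 (99.05%) had 1 sign in the 3 lines, against 47.3% of all genes tested. The change was largest in NT cells for 61.3% of the pooled calls, in TKO cells for 33.3% and in NKO cells for 5.36%. In the direction of the pooled call, the median change was 0.50 for NT, 0.39 for TKO and 0.25 for NKO cells.

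Pooling called genes that no single line did. Tested alone within the same data, the lines gave 2130 calls in NT (16.0% of the genes tested, 7.68% rising and 8.34% falling), 866 in TKO (6.51%, 4.11% rising and 2.41% falling) and 104 in NKO cells (0.782%, 0.511% rising and 0.271% falling). Of the 2108 pooled calls, 593 (28.1%) were called in no single line, 998 in 1 line, 432 in 2 lines and 85 in all 3. The median size of the pooled change was 0.29 in the first of these classes and 1.19 in the last. The 85 genes called in every line were 59 that rose and 26 that fell, among them HES4, HES1, HEY2, DLL4, SLC46A3, IL1B, FST, BCL2A1, CLEC14A, LYVE1 and CLDN5. A further 976 genes were called in some line but not in the pooled fit.

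The genes named from the calls that no single line gave had small and even changes, which their selection favours. In the pooled test, unequal responses of the lines count as spread, and larger changes tend to be called within a line. TSPAN6, a tetraspanin, was at 21.1 and 18.7 TPM on IgG and 26.6 and 24.7 on DLL4 in NT cells, at 14.8 and 17.8 on IgG and 21.3 and 21.1 on DLL4 in TKO cells and at 19 and 19.7 on IgG and 22.5 and 27.6 on DLL4 in NKO cells. TSPAN6 rose by 0.35 ± 0.07 (limma adjusted p = 0.0040), with 0.35 for NT, 0.36 for TKO and 0.35 for NKO cells. ZNF710, a zinc finger gene, fell by 0.50 ± 0.08 (limma adjusted p = 0.0012), with -0.46 for NT, -0.53 for TKO and -0.51 for NKO cells. CXCL3, a neutrophil chemokine, fell by 0.51 ± 0.09, HOMER3, a scaffold protein, by 0.36 ± 0.06, SPOCD1 by 0.63 ± 0.12 and OGFRL1 by 0.46 ± 0.09, while TMOD2, which caps actin filaments, rose by 0.46 ± 0.08 and SLC25A1, the mitochondrial citrate carrier, by 0.30 ± 0.06. The limma adjusted p-values of these 6 lay between 0.0024 (CXCL3) and 0.0040 (OGFRL1), and SPOCD1 overlapped between coatings in 1 line. With the labels exchanged only within lines, an exact permutation test has 216 arrangements and cannot give a two-sided p below 0.00926. Genes reach it when the coatings do not overlap in any line, as did 11.6% of all genes tested. It was reached by 112 of the 156 named genes, but the naming rule asked many of them for that separation, so the count is a description.

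Whether the response found in a pair of lines recurred in the line left out was read without shared libraries. Leaving out NT cells, 668 genes were called in TKO and NKO cells together. Of these, 637 (95.4%) had the same sign in NT cells, and for 592 (88.6%) the NT libraries on DLL4 and IgG were apart in that direction, while 8 were apart in the opposite one. Of all genes tested, 30.7% were apart upward and 27.9% downward in NT cells. Leaving out TKO cells gave 926 calls, of which 873 (94.3%) had the same sign in TKO cells and 749 (80.9%) were apart in the same direction, against 28.5% upward and 21.8% downward for all genes. Leaving out NKO cells gave 1816 calls, of which 1695 (93.3%) had the same sign in NKO cells and 1051 (57.9%) were apart in the same direction, against 18.9% upward and 15.1% downward for all genes.

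The size of the response carried over less evenly than its sign. The median change of the genes called without NT cells was 0.53 in TKO and NKO cells and 0.64 in NT cells. For those called without TKO cells it was 0.56 and then 0.46 in TKO cells. For those called without NKO cells it was 0.49 and then 0.22 in NKO cells. Across all 13299 genes, the changes in NT and TKO cells had a Pearson r of 0.456 (Spearman 0.388), those in NT and NKO cells 0.446 (0.432) and those in TKO and NKO cells 0.434 (0.451). The lines share no library, but genes are not independent of each other and no p is given.

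**Figure D3:**
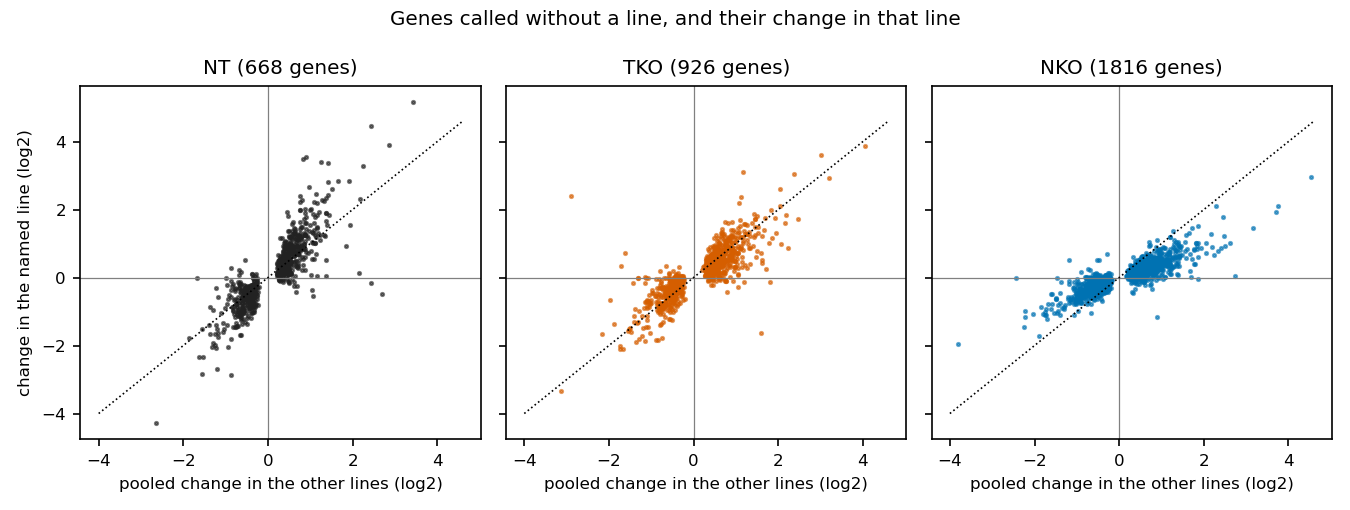
For each line, the genes called for DLL4 against IgG in the other lines (668, 926 and 1816 genes), with the pooled log2 change in those lines on the horizontal axis and the change in the named line on the vertical axis, 1 point per gene and a dotted line at equal changes. Most points lie in the quadrants of equal sign, and in the NKO panel most lie nearer to 0 than the dotted line.

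A limma F test across the 3 lines found 108 genes whose DLL4 response differed between lines (0.812% of the genes tested). That count was 45 without NT library DLL4 2 or DLL4 3, and 55 to 59 without NT library IgG 2 or IgG 3, TKO library DLL4 2 or DLL4 3, or NKO library DLL4 1. Of the pooled calls, 74 (3.51%) were among them, and 34 of the 108 were not called in the pooled fit. The change was largest in NT cells for 83 of the 108, in TKO cells for 23 and in NKO cells for 2, and it was smallest in NKO cells for 81. SLC1A4, a neutral amino acid transporter, changed by 2.29 for NT, 1.23 for TKO and 0.40 for NKO cells and rose in the pooled fit by 1.31 ± 0.22 (limma adjusted p = 0.0021). ARHGEF17 rose by 1.54 ± 0.23 with 2.66 for NT, 1.03 for TKO and 0.92 for NKO cells, and ACP5, the tartrate-resistant acid phosphatase, by 1.72 ± 0.37 with 3.50 for NT, 1.00 for TKO and 0.66 for NKO cells (limma adjusted p = 0.00092 and 0.0084). The pooled values of these genes average unequal responses.

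In 6 genes, opposite directions were called in 2 lines, and the pooled fit called none of them. PDGFB, a growth factor that recruits pericytes, was at 79.3 and 90.3 TPM on IgG and 63 and 62.3 on DLL4 in NT cells, and at 63.4 and 68.9 on IgG and 88.8 and 95.5 on DLL4 in TKO cells. It fell in NT cells (-0.43 ± 0.09, limma adjusted p = 0.010) and rose in TKO cells (0.47 ± 0.09, limma adjusted p = 0.012), which left a pooled change of 0.04 ± 0.12. BHLHE40, a bHLH repressor, went the other way, with 0.50 for NT, -0.43 for TKO and -0.02 for NKO cells, as did NEDD9, a focal adhesion scaffold, with 0.74 for NT, -0.60 for TKO and 0.12 for NKO cells. AGFG2 had changes of -0.52 for NT, 0.36 for TKO and -0.11 for NKO cells, DIPK1B of -0.45 for NT, 0.48 for TKO and 0.02 for NKO cells and AC109583.2 of -1.85 for NT, 2.52 for TKO and 0.04 for NKO cells. The differences of 5 of these passed the F test, and that of AC109583.2 did not (adjusted p = 0.066).

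Of 30 genes of arterial endothelium, 28 were tested, 14 rose and 1 fell, with a median change of 0.44. Without NT library DLL4 2, 9 rose, as they did without a filter. Without the NT line 5 rose, and without the TKO line 7. Rising calls over all genes tested went from 1201 to 405 and 534 in these fits. SAT1, a polyamine acetyltransferase, rose by 1.54 ± 0.12 (limma adjusted p = 1.5e-05), at 36.7 to 63.5 TPM on IgG and 73.2 to 219 on DLL4. IGFBP3 rose by 1.33 ± 0.18 (limma adjusted p = 0.00043) and EPAS1, the hypoxia-inducible factor HIF-2 alpha, by 0.98 ± 0.16 (limma adjusted p = 0.0015). The list medians by line were 0.97 for NT, 0.24 for TKO and 0.09 for NKO cells. Of 19 venous and lymphatic genes, 11 were tested and 3 rose (27.3%, against 9.03% of all genes tested), namely LYVE1, EPHB4 and NRP2. There was 1 that fell (9.09%, near the 6.82% of all genes tested). EPHB4, a venous receptor for EFNB2, rose by 0.56 ± 0.09 (limma adjusted p = 0.0016), and NRP2 by 0.31 ± 0.08 (limma adjusted p = 0.014). The member that fell was PDPN, podoplanin (-0.58 ± 0.17), whose call ended when any of 9 single libraries was left out.

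Of 30 genes of endothelial identity, 7 rose (23.3%, against 9.03% of all genes tested) and 4 fell (13.3%, against 6.82%), with a median of 0.04. Leaving out any 1 of the 4 NT libraries, TKO library DLL4 2 or NKO library DLL4 2 left 4 that rose. CLEC14A rose and CLDN5 fell, as given above. MMRN1 and MMRN2, the multimerins, rose by 0.54 ± 0.09 and 0.54 ± 0.10 (limma adjusted p = 0.0012 and 0.0026). Of 25 tip cell and sprouting genes, 22 were tested, 8 rose (36.4%) and 5 fell (22.7%). ESM1 fell, while NID2 (1.20 ± 0.10, limma adjusted p = 1.7e-05), a basement membrane nidogen, and FLT1 (1.13 ± 0.13, limma adjusted p = 0.00016), the VEGF receptor that can act as a decoy, rose. FLT1 was at 23.9 to 29.8 TPM on IgG and at 40.5 to 82.6 on DLL4 and responded unequally, with 1.60 for NT, 1.21 for TKO and 0.58 for NKO cells (limma F test, adjusted p = 0.028). Of 29 VEGF signalling genes, 23 were tested, 4 rose (17.4%) and 6 fell (26.1%). SPRY2, an inhibitor of receptor tyrosine kinase signalling, fell by 0.87 ± 0.11 (limma adjusted p = 0.00021).

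Matrix genes rose in number, in a list chosen with earlier results of these data known. Of 48 genes of the basement membrane and matrix, 37 were tested. Of these, 21 rose (56.8%, against 9.03% of all genes tested) and 3 fell (8.11%, against 6.82%). The median was 0.41 and, by line, 0.44 for NT, 0.36 for TKO and 0.17 for NKO cells. Leaving out the NT line left 12 that rose, while rising calls over all genes tested went from 1201 to 405. COL4A1, a chain of type IV collagen, went from 486 and 431 to 1025 and 880.1 TPM in NT cells, from 93.9 and 101 to 163 and 194 in TKO cells and from 351 and 330.2 to 453 and 497 in NKO cells. The coatings of COL4A1 did not overlap within a line, and it rose by 0.80 ± 0.09 (limma adjusted p = 0.00011). MGP, the matrix Gla protein that binds BMPs, rose by 1.19 ± 0.10 (limma adjusted p = 2.1e-05), with 1.12 for NT, 1.46 for TKO and 0.99 for NKO cells. EMILIN2 fell by 1.00 ± 0.12 (limma adjusted p = 0.00019).

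Of 37 mesenchymal and contractile genes, 32 were tested, with a median of 0.30. Of these, 15 rose (46.9%, against 9.03% of all genes tested) and none fell (against 6.82%). FN1, fibronectin, was at 225 to 755 TPM on IgG and at 506 to 2118 on DLL4 and rose by 1.26 ± 0.12 (limma adjusted p = 4.1e-05). CCN2, a matricellular growth factor, rose by 0.87 ± 0.11 (limma adjusted p = 0.00024) and TPM1, a tropomyosin, by 0.59 ± 0.09 (limma adjusted p = 0.00077). Among the smooth muscle and fibroblast markers, ACTA2 was at 9.78 to 20.6 TPM on IgG and 11.9 to 29.9 on DLL4. MYH11 and DES were below 1 TPM throughout, but RGS5, also known from pericytes, was at 2.55 to 144 TPM on IgG and 2.88 to 221 on DLL4. Its pooled change of 0.21 ± 0.09 did not pass the test (adjusted p = 0.16). Of 39 genes of TGF-beta, activin and BMP signalling, 35 were tested, 11 rose (31.4%) and 3 fell (8.57%). Without NT library IgG 2 or NT library DLL4 2, 7 rose. Besides TGFB2 and FST, ID3, a BMP-responsive inhibitor of bHLH factors, rose by 0.62 ± 0.08 (limma adjusted p = 0.00024), and NOG, the BMP antagonist noggin, fell by 0.84 ± 0.13 (limma adjusted p = 0.0013).

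**Figure D4:**
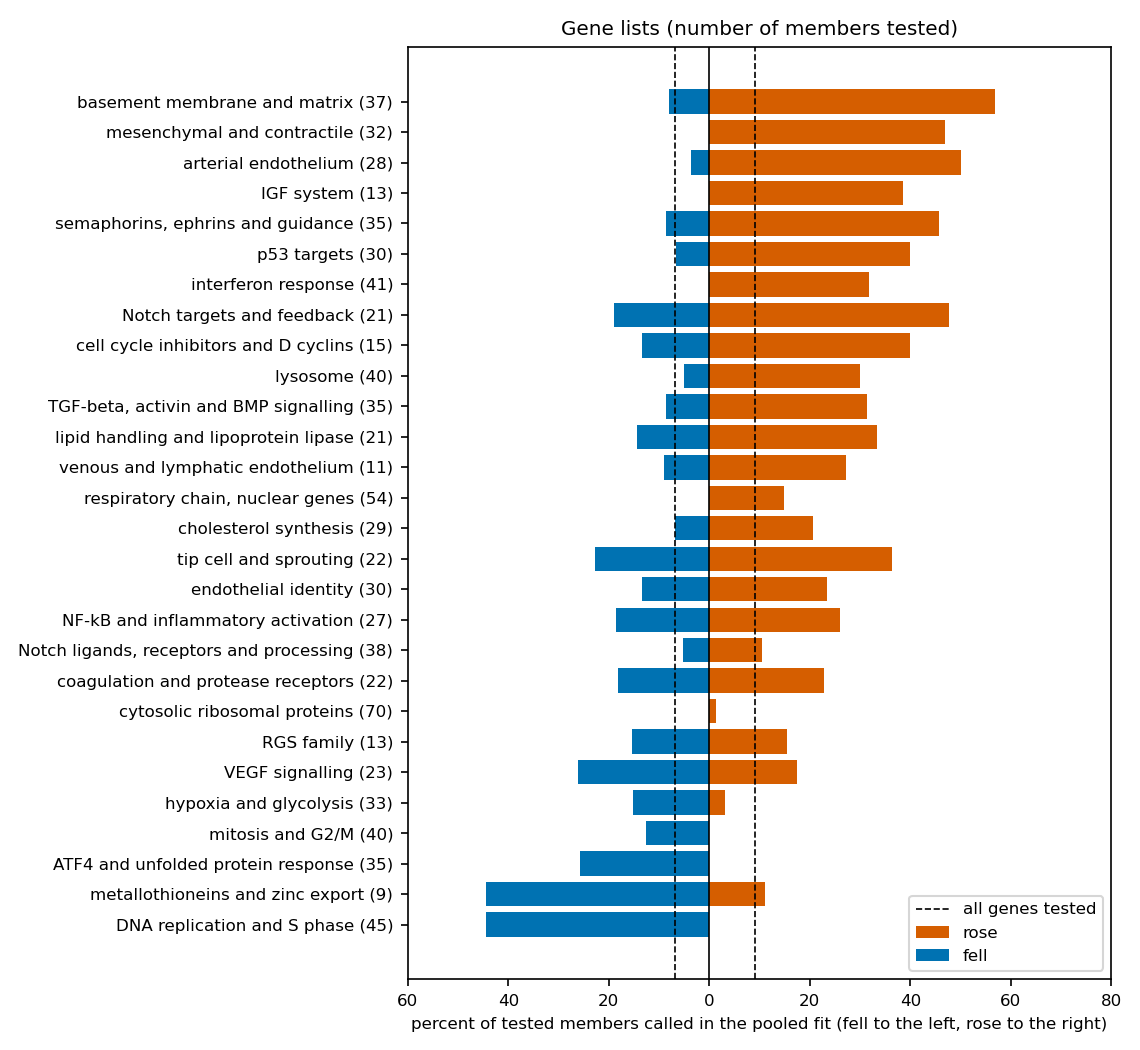
Percent of the tested members of each of 28 gene lists that rose (bars to the right) or fell (bars to the left) on DLL4 in the pooled fit, with the number of tested members in parentheses and dashed lines at the shares for all genes tested (9.03% rising and 6.82% falling). The matrix, mesenchymal, arterial, guidance and p53 lists have long bars to the right, and the replication list has a bar to the left only.

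Of 48 semaphorin, ephrin and guidance genes, 35 were tested, with a median of 0.22. Of these, 16 rose (45.7%, against 9.03% of all genes tested) and 3 fell (8.57%, against 6.82%). The list had 6 rising calls without the NT line and 9 without the TKO line, and more members fell without NT library IgG 2. Rising calls over all genes tested went from 1201 to 405 without the NT line and 534 without the TKO line. NTN4, a netrin found in basement membranes whose promoter stretch is shown above, went from 27.2 and 28.3 to 80.8 and 75.9 TPM in NT cells, from 95.3 and 104 to 266 and 247 in TKO cells and from 44.7 and 46.1 to 79.7 and 97 in NKO cells. The coatings of NTN4 were apart in each line, and it rose by 1.25 ± 0.08 (limma adjusted p = 5.2e-06), with 1.46 for NT, 1.36 for TKO and 0.94 for NKO cells. EFNA1, an ephrin, was at 6.23 to 11 TPM on IgG and at 17.7 to 42 on DLL4 and rose by 1.58 ± 0.14 (limma adjusted p = 2e-05). PLXND1, a semaphorin receptor, rose by 0.90 ± 0.11 (limma adjusted p = 0.00021), and SEMA7A fell.

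DNA replication genes fell in number, also in a list chosen with earlier results of these data known. Of 45 genes of DNA replication and S phase, all were tested, with a median of -0.26. Of these, 20 fell (44.4%, against 6.82% of all genes tested) and none rose (against 9.03%). The list medians were -0.56 for NT, -0.19 for TKO and -0.09 for NKO cells. None of the 45 passed the F test, which called 0.812% of all genes tested, so alike responses are not shown. Tested within lines, 27 members fell in NT, 2 in TKO and none in NKO cells, against 8.34%, 2.41% and 0.271% of all genes tested. Leaving out any 1 of the 4 NT libraries left 13 that fell, and leaving out the NT line left 4. There were 10 without the TKO line and 10 without a filter on low values. Falling calls over all genes tested went from 907 to 263 without the NT line, 392 without the TKO line and 538 without a filter. UHRF1, which maintains DNA methylation, fell by 0.58 ± 0.10 (limma adjusted p = 0.0017), E2F1, a driver of S phase, by 0.46 ± 0.09 (limma adjusted p = 0.0040), and MCM2 and MCM3, subunits of the replicative helicase, by 0.56 ± 0.11 and 0.40 ± 0.08 (limma adjusted p = 0.0044 and 0.0050). MCM2 was at 35.3 and 40.4 TPM on IgG and 18.8 and 17.3 on DLL4 in NT cells, at 40.7 and 46.8 on IgG and 33.2 and 31.9 on DLL4 in TKO cells and at 55.9 and 51.6 on IgG and 45.7 and 44.1 on DLL4 in NKO cells, lower on DLL4 without overlap in each line.

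Of 40 genes of mitosis and G2/M, 5 fell (12.5%, against 6.82% of all genes tested) and none rose (against 9.03%). Neither the set without NT cells nor that without TKO cells gave any call in the list, where 263 and 392 of all genes fell. The count of falling genes ranged from 1 to 8 when single libraries were left out. It was 1 without NT library IgG 2, NT library DLL4 3 or TKO library DLL4 3, 2 without TKO library IgG 2 or TKO library DLL4 2, 3 without NT library IgG 3 or NKO library IgG 1, and 8 without NKO library IgG 2. With the 3 other scalings it was 8 or 9. AURKB, a mitotic kinase, fell by 0.31 ± 0.07 (limma adjusted p = 0.0099). Of 18 cell cycle inhibitors and D cyclins, 15 were tested, 6 rose and 2 fell, the latter being CCND1 and MYC. CCND3, cyclin D3, rose by 0.41 ± 0.07 (limma adjusted p = 0.0022) while CCND1 fell, and BTG2, an anti-proliferative gene, rose by 0.54 ± 0.10 (limma adjusted p = 0.0039). Of 30 p53 targets, 12 rose and 2 fell, with a median of 0.21. Without the NT line or the TKO line, 4 rose, while rising calls over all genes tested went from 1201 to 405 and 534. PLK2, a polo-like kinase, rose by 1.29 ± 0.11 (limma adjusted p = 1.7e-05), at 67.4 to 98.7 TPM on IgG and 162 to 228 on DLL4, TP53INP1 rose by 0.84 ± 0.14 (limma adjusted p = 0.0020), and PMAIP1, the pro-apoptotic NOXA, fell by 0.57 ± 0.10 (limma adjusted p = 0.0028).

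In the main fit, the interferon list held rising calls and no falling ones. After median-of-ratios rescaling or quantile normalisation, 1 member fell. Of 52 members of the interferon response list, 41 were tested. Of these, 13 rose (31.7%, against 9.03% of all genes tested) and none fell (against 6.82%). The median was 0.26 and, by line, 0.12 for NT, 0.33 for TKO and 0.23 for NKO cells. Without a filter 7 rose, without the NT line 5 and without the TKO line 3. Rising calls over all genes tested went from 1201 to 782, 405 and 534 in these fits. B2M, the light chain of class I molecules, rose by 0.38 ± 0.05 (limma adjusted p = 0.00066), with 0.29 for NT, 0.48 for TKO and 0.36 for NKO cells. UBE2L6, the ISG15-conjugating enzyme, rose by 0.84 ± 0.12 (limma adjusted p = 0.00071). PSMB9, an immunoproteasome subunit, rose by 0.71 ± 0.16 (limma adjusted p = 0.010), with 0.07 for NT, 1.12 for TKO and 0.93 for NKO cells, its smallest change being in NT cells. IRF1, by contrast, changed by 1.08 for NT, 1.10 for TKO and 0.00 for NKO cells (limma F test, adjusted p = 0.020). Of 36 genes of NF-kB and inflammatory activation, 27 were tested, 7 rose (25.9%) and 5 fell (18.5%). IL1B and CCL2 were among the rising members, and BCL2A1, CD274 and CXCL3 among the falling ones.

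Genes of blood clotting changed in both directions. F2R, the thrombin receptor PAR1, was at 92.4 to 143 TPM on IgG and at 219 to 519 on DLL4 and rose by 1.35 ± 0.15 (limma adjusted p = 0.00010). TFPI, the tissue factor pathway inhibitor, rose by 1.07 ± 0.12 (limma adjusted p = 0.00011). PLAT, tissue plasminogen activator, went from 1535 and 1717 to 870.5 and 866 TPM in NT cells, from 2846 and 2925 to 1095 and 1147 in TKO cells and from 1011 and 940.1 to 646 and 602 in NKO cells. PLAT fell by 0.97 ± 0.09 (limma adjusted p = 4.1e-05). Among 22 tested members of the coagulation and protease receptor list, 5 rose (22.7%, against 9.03% of all genes tested) and 4 fell (18.2%, against 6.82%). ANGPTL4, an inhibitor of lipoprotein lipase, rose by 1.63 ± 0.15 (limma adjusted p = 3.4e-05), with 2.26 for NT, 1.18 for TKO and 1.46 for NKO cells, and LIPG, endothelial lipase, by 0.84 ± 0.07 (limma adjusted p = 2.1e-05), with 0.91 for NT, 0.99 for TKO and 0.63 for NKO cells. Of 21 tested genes of lipid handling, 7 rose (33.3%) and 3 fell (14.3%). Without TKO library DLL4 3, 1 fell. Without the NT line 3 rose and without the TKO line 4, and in neither case did any fall. Over all genes tested, rising calls went from 1201 to 405 and 534 and falling calls from 907 to 263 and 392.

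MT2A, a zinc-binding metallothionein, went from 3354 and 3481 to 678 and 673 TPM in NT cells, from 3890.0 and 3783 to 904 and 893 in TKO cells and from 3977 and 4329 to 2026 and 2192 in NKO cells. All 6 DLL4 libraries were below all 6 IgG libraries. MT2A fell by 1.80 ± 0.17 (limma adjusted p = 3.7e-05), with -2.34 for NT, -2.09 for TKO and -0.98 for NKO cells (limma F test, adjusted p = 0.00020). Of 12 metallothionein and zinc export genes, 9 were tested. Of these, 4 fell (44.4%, against 6.82% of all genes tested) and 1 rose (11.1%, against 9.03%). The riser was SLC30A1, a zinc exporter (0.39 ± 0.11, limma adjusted p = 0.031), whose call ended in 11 of the 24 alternatives, among them leaving out any 1 of the 4 NT libraries, TKO library IgG 2, TKO library DLL4 2 or TKO library DLL4 3. Without a filter on low values, the TKO line or the NKO line, 2 fell. MT1X was among the falling genes, falling by 0.99 ± 0.15 (limma adjusted p = 0.0011). Values of single metallothionein genes are uncertain because their near-identical sequences can share reads. MT1A was listed at 0 in all 4 NT libraries and fell by 1.12 ± 0.27 in the pooled fit (limma adjusted p = 0.014).

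Of 35 genes of ATF4 and the unfolded protein response, 9 fell (25.7%, against 6.82% of all genes tested) and none rose (against 9.03%). The median was -0.05. With the average of the 3 line changes 2 members rose, and without the NKO line 1 did. Tested within lines, 7 members rose and 9 fell in NT cells (median 0.02), 13 fell and none rose in TKO cells (median -0.17), and none was called in NKO cells. Leaving out the NT line left 5 that fell, while falling calls over all genes tested went from 907 to 263. The falling members included ATF4 itself, the factor that drives amino acid stress genes (-0.37 ± 0.06, limma adjusted p = 0.0016), SLC7A5, an amino acid transporter (-0.89 ± 0.10, limma adjusted p = 0.00016), CHAC1, a glutathione-degrading enzyme (-0.77 ± 0.11, limma adjusted p = 0.00050), and ATF3 (-0.52 ± 0.08, limma adjusted p = 0.00068). ATF4 stood at 346 to 473 TPM over the IgG libraries and 263 to 419 over the DLL4 libraries, with changes of -0.40 for NT, -0.55 for TKO and -0.15 for NKO cells. Among regulators of G protein signalling, RGS2 fell by 1.39 ± 0.15 (limma adjusted p = 7.8e-05), while RGS3 and RGS4 rose by 0.83 ± 0.12 and 0.94 ± 0.17 (limma adjusted p = 0.00074 and 0.0026). Of 33 tested genes of hypoxia and glycolysis, 5 fell (15.15%) and 1 rose (3.03%). The count of falling members was 2 or 3 without any of 6 single libraries: NT library IgG 3, TKO library IgG 2, NKO library IgG 1, NT library DLL4 3, TKO library DLL4 3 and NKO library DLL4 2. ADM, adrenomedullin, fell by 0.79 ± 0.13 (limma adjusted p = 0.0016).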

How the data were processed

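Polyadenylated RNA of 12 TeloHAEC libraries was measured. The authors deposited TPM for each gene symbol. Per the submitters' processing notes, kallisto, edgeR and the build hg38 were used. Versions, annotation and the step from transcripts to symbols were not given in the sources used here. Library totals ran from 974989 to 977130 TPM. TPM keep no read numbers, so no counting interval is given. For the changes of a line, precision is the spread between the 2 libraries of a group. For pooled changes, unequal responses of the lines add to it. Columns of NT and TKO cells are numbered 2 and 3 and those of NKO cells 1 and 2, while the labels number every group 1 and 2. Columns were matched to groups and libraries are named by column number. Positions and biotypes came from GENCODE 29 (GRCh38), which held 35389 of the 35587 symbols and not the other 198, and 14 symbols stood as dates. Of the 13299 genes tested, 12162 are protein coding.

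Genes that reached 1 TPM in 2 or more libraries were put on the log2(TPM + 1) scale. limma 3.58.1 (R 4.3.3) fitted line and coating with a variance trend. Its two-sided p-values were adjusted by the Benjamini-Hochberg method over all of these genes, at a threshold of 0.05 (8 residual degrees of freedom, 12.7 after moderation). A fit of 6 group means gave the change in each line and an F test of the difference between lines (2 degrees of freedom). Errors of log2 changes are standard errors. The code was tested on simulated data.

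The members, the gene lists and the tests were chosen with earlier results of these data known. Named genes are, among those with a mean of at least 5 TPM in the higher coating, up to 12 per direction with the largest pooled change and up to 6 with the largest smallest-line change (called, no overlap in any line), and up to 8 of smallest p among genes called in no single line and among those that differ between lines. To these come all Notch targets on the list, DLL4, NOTCH1, TSPAN14, up to 4 genes of smallest p per list, and genes called in opposite directions in 2 lines. Other genes the text gives, those at the threshold and the cell markers, were added for that purpose. A total of 32 lists was used, 4 of them of markers of other cell types. Promoter windows are the 250 bases before the RefSeq start (GRCh38.p14), searched for GTGGGAA on both strands with no other motif. The alternatives were another pseudocount (0.1), no filter, a mean of at least 5 TPM, 2 rescalings, leaving out KPNA2P2, group means, the column number as a block, no trend, and leaving out each library or line. Plots came from matplotlib 3.10.9 (Python 3.11.15).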

Additional observations from a re-analysis of the deposited data

Results flagged for a closer look

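For the genes below, the DLL4 response differed between the NT, TKO and NKO lines by limma's F test, and the adjusted p follows each name. Changes are on the log2(TPM + 1) scale, which understates those from levels below 1 TPM, as for ART4 in NT and NKO cells. The change was largest in NT cells and had 1 sign in the 3 lines for SLC46A3 (0.0013), HES4 (0.020), TFF1 (0.049), CASP17P (0.0045), MASP1 (0.038), RND1 (0.0063), the DLL4 gene (0.0024), FST (0.0023), SH2D2A (0.023), MT2A (0.0002), EFNB2 (0.0013), SLC1A4 (0.0013), ARHGEF17 (0.0021), HEY2 (0.0021), ACP5 (0.0023), GJA4 (0.0036), IGFBP3 (0.042), FLT1 (0.028), TPM1 (0.020), STARD4 (0.044), ADM (0.024), MT1X (0.023), F2R (0.0060) and RGS3 (0.0059). It was largest in NT cells with signs that differed between lines for MFNG (0.0002), SNAI1 (0.039), AGFG2 (0.013), BHLHE40 (0.023) and NEDD9 (0.0081). It was largest in TKO cells with 1 sign for ART4 (0.0033), HES1 (0.0068), IRF1 (0.020) and PLAT (0.019). With signs that differed, it was largest in TKO cells for DIPK1B (0.041) and PDGFB (0.023). A sign can rest on a very small change, as in NKO cells for EFNB2 (0.04), GJA4 (0.03) and IRF1, where no response is shown.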

How the results depend on the processing

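The count of 2108 pooled calls was within 1.5 times of its value in 21 of 24 alternatives. Without a filter on low values there were 1320 calls (782 rising and 538 falling). Without the NT line there were 668 (405 rising, 263 falling), 651 of them with no overlap of coatings. Without the TKO line there were 926 (534 rising, 392 falling), 869 of them with no overlap, and without the NKO line 1816. These fits hold 8 libraries in place of 12. The average of the 3 line changes, tested against the spread within the 6 groups, gave 2572 calls (1412 rising, 1160 falling). Leaving out single libraries gave 1464 to 2299 calls, 807 to 1233 rising and 574 to 1145 falling. The fewest falling calls came without NT library DLL4 3 (574) and NT library IgG 3 (585). The count of 108 genes that differ between lines was 85 to 152 under the other alternatives that gave one, and 45 to 115 when single libraries were left out. It was 45 without NT library DLL4 2 or DLL4 3, 55 to 59 without NT library IgG 2 or IgG 3, TKO library DLL4 2 or DLL4 3, or NKO library DLL4 1.

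The column numbers were not taken to pair the libraries: the correlation of deviations of libraries with the same number was 0.00 for NT, 0.02 for TKO and 0.28 for NKO. With the replicate number as a block within lines there were 1652 calls (968 rising, 684 falling), 1127 with no overlap and 109 that differ between lines.

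Rescaling by median-of-ratios gave 2301 calls and quantile normalisation 2397. With these and without KPNA2P2, the share of rising calls was 49.5%, 48.7% and 48.3%, against 57.0%. KPNA2P2 took 0.28% to 5.61% of a library. Of 135 named genes that were called, 87 kept the call in all 24 alternatives, and none of the 135 changed sign. Leaving out the NT line ended the call of 41, the TKO line of 29 and the NKO line of 10. The causes were not tested. Unknown depth and 2 libraries per group limit what small changes mean.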

Other observations

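Several metabolic lists held mostly small changes. Of 40 lysosomal genes, all tested, 12 rose and 2 fell, with a median of 0.17. Without the NT line 5 rose, and without the TKO line 6, while rising calls over all genes tested went from 1201 to 405 and 534. Besides SLC46A3, ASAH1, acid ceramidase, rose by 0.43 ± 0.07 (limma adjusted p = 0.0021) and LIPA, lysosomal acid lipase, by 0.39 ± 0.07 (limma adjusted p = 0.0022), with 0.39 for NT, 0.47 for TKO and 0.32 for NKO cells. NPC1, the cholesterol exporter of lysosomes, fell by 0.42 ± 0.08 (limma adjusted p = 0.0048). Of 29 tested genes of cholesterol synthesis, 6 rose (20.7%, against 9.03% of all genes tested) and 2 fell (6.90%, near 6.82%). The rising count was 3 without TKO library IgG 2, NKO library IgG 1, NT library DLL4 3, TKO library DLL4 3 or NKO library DLL4 2, and 10 without NKO library DLL4 1. It was also 3 under median-of-ratios rescaling or without a filter, and 1 without the NT line. The falling count was 1 without any single library but TKO library IgG 2, NKO library IgG 2 and NKO library DLL4 1. STARD4, a carrier of cholesterol, rose by 0.72 ± 0.18 (limma adjusted p = 0.016), with 1.44 for NT, 0.09 for TKO and 0.64 for NKO cells.

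Of 54 nuclear genes of the respiratory chain, 8 rose (14.8%, against 9.03% of all genes tested) and none fell (against 6.82%). Their medians were 0.00 for NT, 0.14 for TKO and 0.11 for NKO cells. No member was called without the TKO line, and 5 were called without NT library IgG 3, NT library DLL4 2, TKO library DLL4 2, TKO library DLL4 3 or NKO library DLL4 2. Under median-of-ratios rescaling 4 rose, and 5 rose with KPNA2P2 left out, with the replicate block or without a variance trend. NDUFB5, a subunit of complex I, rose by 0.24 ± 0.05 (limma adjusted p = 0.0076). Of 70 cytosolic ribosomal protein genes, RPS29 rose (0.17 ± 0.05, limma adjusted p = 0.037), and none fell. That call ended in 13 of the 24 alternatives (adjusted p up to 0.22), among them median-of-ratios rescaling, the replicate block, leaving out the TKO or NKO line and leaving out any of 7 single libraries, all of them TKO or NKO libraries. Of 13 tested genes of the IGF system, 5 rose (38.5%) and none fell, although 1 fell under quantile normalisation. IGFBP7 was among those that rose (0.22 ± 0.04, limma adjusted p = 0.0032).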
